A study of Mus musculus with 3 samples.

Results

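The NF-kB subunit and IKK kinase genes were followed across 3 mouse whole-transcript arrays as 10 named genes, Chuk, Ikbkb, Ikbkg, Ikbke, Tbk1, Nfkb1, Nfkb2, Rela, Relb and Nfkbia, taken by gene symbol through the platform annotation. Of these, 8 were measured, among 22180 named genes in all, and each rested on 1 probe set; Chuk and Nfkb1 were not analysed here. The arrays held RNA of FULA 1 cells, a mouse lung adenocarcinoma line grown in culture medium with serum, of the lung of FVB mice injected intraperitoneally with urethane and taken 1 week later, and of the lung of FVB mice injected with saline. FVB is an inbred strain, urethane is a carcinogen that gives lung tumours in mice, and the sources used here give neither the age of the mice, nor the number behind each lung array, nor the time of the saline lung. With 1 array per group there was no replicate spread and no test, so every difference below compares these arrays and not the conditions.

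NF-kB is a family of dimeric transcription factors that wait in the cytoplasm, held there by inhibitors of the IkB family. In the canonical branch, receptors for cytokines and microbial products switch on the IKK complex, in which the kinases IKK alpha (Chuk) and IKK beta (Ikbkb) are held by the scaffold NEMO (Ikbkg); the complex marks IkB alpha (Nfkbia) for destruction and so frees dimers of RelA (Rela) and p50 (Nfkb1). In the noncanonical branch, the kinase NIK (Map3k14) acts through IKK alpha to have p100 (Nfkb2) cut to p52, which pairs with RelB (Relb). TBK1 and IKK epsilon (Ikbke) are related kinases best known for switching on the interferon regulatory factors. In the lung, the pathway is known for the inflammatory response of airway and alveolar cells, and in mouse models of lung adenocarcinoma for a part in tumour growth.

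NF-kB drives some of its own genes, so the DNA before the start of a few members is shown, read from RefSeq sequences of build GRCm38.p6 as the 250 bases before each listed start. Of the 8 measured genes, 6 had an entry, with 11 starts together. The kappaB consensus, the 10-base site bound by NF-kB dimers, was searched on both strands, and its matches, which partly overlap one another before the outermost Nfkb2 start, stand in capitals. It matched before all 3 listed starts of Nfkb2 and before the only listed start of Nfkbia, at 4 of the 11 starts in all, against 7.25% of 32851 windows of the same length over all genes. Ikbke is shown because it differed most between FULA 1 and the saline lung, and its window held no match. The windows of Ikbkg, Rela and Tbk1 held none either. A match is a string of letters and was not tested for binding.

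Nfkb2, outermost start (chr19:46304487-46304736, plus strand): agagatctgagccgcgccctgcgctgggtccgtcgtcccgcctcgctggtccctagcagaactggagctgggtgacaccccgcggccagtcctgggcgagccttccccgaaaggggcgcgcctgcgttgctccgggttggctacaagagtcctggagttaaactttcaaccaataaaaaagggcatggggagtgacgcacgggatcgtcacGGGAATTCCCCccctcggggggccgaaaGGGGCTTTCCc
Nfkbia (chr12:55492648-55492897, minus strand): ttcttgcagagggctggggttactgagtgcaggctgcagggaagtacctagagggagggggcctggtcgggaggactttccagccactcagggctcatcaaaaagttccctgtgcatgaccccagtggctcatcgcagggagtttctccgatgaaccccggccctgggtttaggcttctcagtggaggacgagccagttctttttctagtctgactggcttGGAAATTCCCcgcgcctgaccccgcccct
Ikbke (chr1:131279564-131279813, minus strand): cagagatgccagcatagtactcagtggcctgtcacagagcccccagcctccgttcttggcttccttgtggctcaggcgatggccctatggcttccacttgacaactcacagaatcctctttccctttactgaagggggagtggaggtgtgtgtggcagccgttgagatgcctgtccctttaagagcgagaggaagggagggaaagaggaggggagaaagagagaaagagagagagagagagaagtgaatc

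The matches begin between 39 and 11 bases before the outermost Nfkb2 start and 29 bases before the Nfkbia start. The windows of the inner Nfkb2 starts, which overlap each other, are not printed.

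The deposited log2 values did not share a scale, with medians over 41345 probe sets of 4.96 on FULA 1, 1.22 on the urethane lung and 0.08 on the saline lung. Each gene is therefore given by its percentile rank among all probe sets of an array, which no monotone scaling changes, and by its value after quantile normalization, which gives the arrays the same distribution (normalized value, log2). The 95th percentile of 1105 olfactory receptor genes served as a mark of background, at rank 46.5 on FULA 1, 59.2 on the urethane lung and 59.6 on the saline lung. The labels were set against marker genes. On FULA 1, 10 of 12 lung epithelial markers lay above the mark, with Scgb1a1 and Foxj1 below it, against 12 of 12 on each lung. Lying above the mark did not mean a level near that of lung. After quantile normalization, 6 of the 12 were past 2-fold lower on FULA 1 than on the saline lung, among them Sftpc at -8.83, Sftpb at -6.40 and Ager at -5.21. The 4 that were past 2-fold higher were Krt8, Krt18, Krt19 and Cdh1. Leukocyte markers lay above the mark for 3 of 17 genes on FULA 1, 12 of 17 on the urethane lung and 10 of 17 on the saline lung, and endothelial and stromal markers for 7 of 10 on FULA 1 and 10 of 10 on each lung. The endothelial and stromal markers were nonetheless low on FULA 1, with 9 of 10 past 2-fold lower than on the saline lung and 0 higher. Their median rank was 54.7 on FULA 1, 95.4 on the urethane lung and 95.8 on the saline lung.

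Among the kinases of the canonical branch, Ikbkb was lower on FULA 1 than on either lung, and higher on the urethane lung than on the saline lung. Ikbkb, the catalytic subunit that phosphorylates the IkB proteins, was listed at 8.66 on FULA 1, 4.81 on the urethane lung and 3.11 on the saline lung. These values held rank 88.6 on FULA 1, 95.9 on the urethane lung and 93.3 on the saline lung, so that the line ranked lowest and the urethane lung highest. After normalization Ikbkb stood at 4.70 on FULA 1 and 6.34 on the urethane lung, a difference of -1.64 (log2), or 3.11-fold lower, and this was the only difference of at least 2-fold for this gene. Against the saline lung, at 5.57, FULA 1 differed by -0.87 and the urethane lung by 0.77. The sign of both FULA 1 differences turned when the array medians were aligned and nothing else was done (median alignment), to 0.099 against the urethane lung and 0.66 against the saline lung; under that scaling all genes past the floor had a median of 1.14 and 1.07, and relative to these Ikbkb stood at -1.04 and -0.41. The 0.77 between the lungs ranged from 0.56 to 0.89 over 3 other scalings.

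The scaffold Ikbkg, which holds the IKK kinases together and binds ubiquitin chains, stood at nearly the same rank on the arrays. It ranked 78.7 on FULA 1, 77.8 on the urethane lung and 78.1 on the saline lung. Its normalized value was 3.61 on FULA 1, 3.54 on the urethane lung and 3.56 on the saline lung. The largest difference among these was 0.07 (FULA 1 minus urethane lung), and its sign turned once a lowess curve was subtracted. Under median alignment the differences of FULA 1 were 1.38 from the urethane lung and 1.46 from the saline lung, beside medians of 1.14 and 1.07 over all genes there. On the saline lung its deposited value was shared by 217 probe sets, itself included, so gaps this small are not resolved there.

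Ikbke was measured above the background mark on the tumour line but on neither lung. It was listed at 7.82 on FULA 1, 1.46 on the urethane lung and 0.09 on the saline lung. It ranked 82.4 on FULA 1, 59.1 on the urethane lung and 51.7 on the saline lung. The rank on the urethane lung lay just below the mark of 59.2, and that on the saline lung further below its mark of 59.6. The normalized values were 3.96 on FULA 1, 2.44 on the urethane lung and 2.15 on the saline lung, and with the marks in place of the lung values FULA 1 was higher by at least 1.49 than the saline lung and 1.51 than the urethane lung. These bounds hold for quantile normalization. The difference between the values as measured was 1.81 against the saline lung and 1.52 against the urethane lung. Over 3 other scalings it ran from 1.22 to 2.84 and from 1.17 to 2.62, lowest with lowess in both. The highest in both came under median alignment, where all genes past the floor had medians of 1.07 and 1.14. On the saline lung the deposited Ikbke value was shared by 159 probe sets, itself included. No size is given between the lungs, since both values lay below the mark.

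Tbk1, which encodes the kinase most closely related to IKK epsilon, ranked 80.4 on FULA 1, 79.1 on the urethane lung and 76.4 on the saline lung. Its normalized value was 3.77 on FULA 1, 3.65 on the urethane lung and 3.45 on the saline lung. The largest difference was 0.32 (FULA 1 minus saline lung), whose sign turned under lowess at -0.02. Under median alignment FULA 1 was 1.46 above the urethane lung and 1.75 above the saline lung, past 2-fold in both, with all genes at medians of 1.14 and 1.07.

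**Figure D1:**
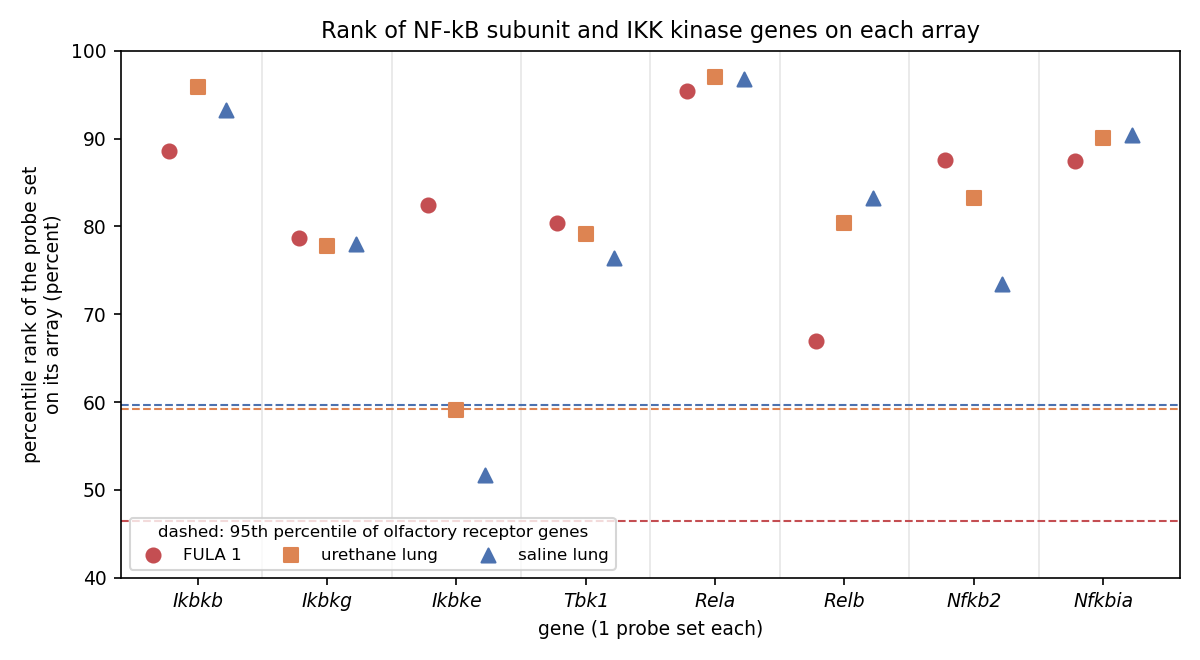
Percentile rank of each measured gene (1 probe set each) among 41345 probe sets on the arrays of FULA 1 cells, urethane lung and saline lung, 1 point per array, with the 95th percentile of olfactory receptor genes on each array as a dashed line in its colour. Ikbke lies at 82.4 on FULA 1 and below the lines of both lungs, Relb is lowest on FULA 1 at 67.0, and Nfkb2 is lowest on the saline lung at 73.5.

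Of the subunits, Rela, the main activating subunit p65, ranked high on every array. It was listed at 9.99 on FULA 1, 5.19 on the urethane lung and 4.47 on the saline lung. It ranked 95.4 on FULA 1, 97.0 on the urethane lung and 96.8 on the saline lung. Its normalized value was 6.17 on FULA 1, 6.76 on the urethane lung and 6.67 on the saline lung, so that FULA 1 differed by -0.58 from the urethane lung and by -0.49 from the saline lung. Both signs turned under median alignment, to 1.06 against the urethane lung and 0.64 against the saline lung. All genes past the floor had medians of 1.14 and 1.07 there, and relative to these Rela stood at -0.08 and -0.43. Rel, the c-Rel subunit of lymphoid cells and no member of the 10 genes, ranked 84.2 on FULA 1, 82.9 on the urethane lung and 85.5 on the saline lung.

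The partners of the noncanonical dimer went opposite ways on FULA 1, with Nfkb2 above and Relb below the saline lung. Nfkb2, which encodes the p100 precursor of p52, was listed at 8.50 on FULA 1, 2.69 on the urethane lung and 0.78 on the saline lung. It ranked 87.5 on FULA 1, 83.3 on the urethane lung and 73.5 on the saline lung, with the saline lung lowest. The normalized value was 4.54 on FULA 1 against 3.22 on the saline lung, a difference of 1.33 (2.51-fold). Over 3 other scalings this difference ran from 0.97 to 2.83, highest under median alignment, where all genes past the floor had a median of 1.07. The urethane lung, at 4.03, lay between the line and the saline lung, 0.81 above the saline lung (1.76-fold; 0.74 to 1.08 over 3 other scalings) and 0.51 below FULA 1.

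Relb, the subunit that pairs with p52 and is abundant in dendritic cells and lymphoid tissue, was listed at 6.25 on FULA 1, 2.47 on the urethane lung and 1.46 on the saline lung. It ranked 67.0 on FULA 1, 80.4 on the urethane lung and 83.2 on the saline lung, still above the mark on the line. Its normalized value was 2.84 on FULA 1, against 3.77 on the urethane lung and 4.02 on the saline lung, a difference of -0.92 from the urethane lung and of -1.18 from the saline lung (2.27-fold lower). The difference from the saline lung ran from -1.68 to -0.11 over 3 other scalings, and that from the urethane lung turned to 0.03 under median alignment. The -0.11 also came from median alignment. All genes past the floor had medians there of 1.07 against the saline lung and 1.14 against the urethane lung. On the lungs its deposited values were shared by 277 probe sets on the urethane array and 132 on the saline array, so the -0.26 between the lungs is coarse.

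Leukocyte markers, by their sum, held the same order of arrays as Relb: the summed normalized signal of the 17 markers, on a linear scale, was 64.0 on FULA 1, 347 on the urethane lung and 404 on the saline lung. No background was subtracted, and on FULA 1 only 3 of the 17 lay above the mark. Most of the lung sums came from Lyz2, a lysozyme gene of macrophages that alveolar type 2 cells of the lung also express, and without it the sums of the other 16 were 59.4 on FULA 1, 139 on the urethane lung and 149 on the saline lung. Ptprc, the pan-leukocyte antigen CD45, ranked 33.7 on FULA 1, 75.3 on the urethane lung and 71.0 on the saline lung. Between the lungs, Ptprc and the number of leukocyte markers above the mark (12 on the urethane lung, 10 on the saline lung) thus went the other way to Relb. The order of the sums was not particular to leukocytes. The summed signal of the 10 endothelial and stromal markers was 57.4 on FULA 1, 745 on the urethane lung and 808 on the saline lung. The part of these markers in the Relb difference was not tested. In RNA of a whole tissue, fewer cells of a type and less RNA per cell cannot be told apart, and cell composition, culture and tumour state cannot be told apart between the line and the lungs.

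Nfkbia, the IkB alpha inhibitor that NF-kB itself induces as a negative feedback, was listed at 8.49 on FULA 1, 3.53 on the urethane lung and 2.44 on the saline lung. It ranked 87.5 on FULA 1, 90.1 on the urethane lung and 90.4 on the saline lung, with the lungs almost equal. The normalized value was 4.54 on FULA 1, 4.93 on the urethane lung and 4.99 on the saline lung, so that FULA 1 differed by -0.39 from the urethane lung and by -0.45 from the saline lung. These signs turned under median alignment, to 1.22 against the urethane lung and 1.17 against the saline lung. Relative to the medians of 1.14 and 1.07 over all genes past the floor there, Nfkbia stood at 0.08 and 0.10.

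**Figure D2:**
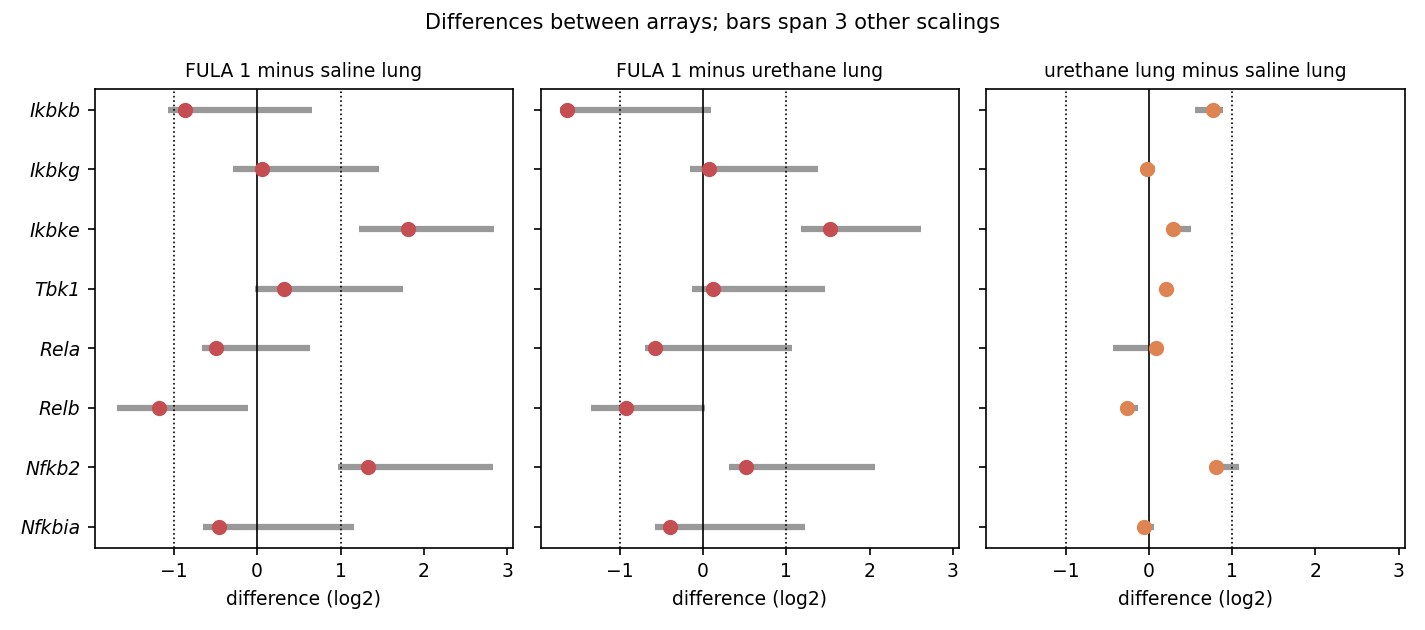
Difference in normalized log2 value for each measured gene in the 3 comparisons (points), with grey bars spanning the same difference under median alignment, with the FULA 1 quantiles as the target and after a lowess curve was subtracted; dotted lines stand at 2-fold. The bars of Ikbke and Nfkb2 lie above 0 in both FULA 1 comparisons, and that of Relb lies below 0 for FULA 1 against the saline lung. Between the lungs the bars of Ikbkb, Nfkb2, Tbk1 and Ikbke lie above 0 and that of Relb below 0, with both Ikbke values below the mark.

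For counts, a gene was called higher or lower when its values lay at least 2-fold apart. The higher of them also had to reach a floor of 2.37, the median of all gene values. All 8 genes passed this floor in each comparison. A gene below the floor on 1 array of a pair could not be called higher on that array. Between FULA 1 and the saline lung, 2 of 8 were higher (Ikbke and Nfkb2) and 1 lower (Relb), against 22.6% of 13590 genes past the floor higher and 22% lower. Between FULA 1 and the urethane lung, 1 was higher (Ikbke) and 1 lower (Ikbkb), against 22.1% and 19.5% of 13264 genes. Between the urethane and the saline lung, 0 of 8 were past 2-fold either way, against 3.27% and 1.31% of 12519 genes. The shares of the 8 genes were 25% higher and 12.5% lower against the saline lung and 12.5% each way against the urethane lung; with 8 genes, 1 gene is 12.5%, and nothing is read from the gaps to the shares of all genes. Their median difference was -0.20 from the saline lung and -0.16 from the urethane lung for FULA 1, and 0.15 between the lungs, against 0.02, 0.07 and -0.07 over all genes past the floor. The comparisons share arrays and are not independent. Other scalings changed the split: under median alignment 5 genes were higher and 0 lower on FULA 1 than on the saline lung, where 51.6% of all genes past the floor were higher and 13.1% lower, and 6 and 0 against the urethane lung, where 52.9% were higher and 11.5% lower.

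The other genes of the pathway were read from 7 lists, and their counts, given over the genes past the floor, stand beside the 22.6% higher and 22% lower of all genes for FULA 1 against the saline lung and the 3.27% and 1.31% between the lungs. Of 8 genes for Rel, the IkB family and related proteins, 1 was higher and 2 lower on FULA 1 than on the saline lung. Nfkbiz, an atypical nuclear IkB protein that NF-kB induces, was higher by 1.79, at rank 85.5 on FULA 1 against 60.05 on the saline lung. Bcl3, a nuclear IkB protein that binds p50 and p52 dimers, was 0.95 higher and under the 2-fold threshold. Nfkbid, another nuclear IkB protein, and Nfkbib, the IkB beta inhibitor, were lower by -1.36 each. The Nfkbib sign turned to 0.10 under median alignment, below the median of 1.07 over all genes there. Between the lungs none of the 8 was past 2-fold; Nfkbib differed by -0.78 and Nfkbiz by -0.43 (at least 0.04 lower, its urethane value lying below the mark). Nfkbie, the IkB epsilon inhibitor, differed by 0.24 and Nkiras1, which encodes a small GTPase that binds IkB proteins, by 0.40.

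Upstream of IKK, 0 of 19 kinases and adaptors were higher on FULA 1 than on the saline lung and 2 lower, with a median of 0.10. These were Map3k8, the TPL2 kinase that is bound to p105, at -1.59 (at least 1.55 lower, counted from the FULA 1 mark), and Map3k3, the MEKK3 kinase, at -1.23. The Map3k3 sign turned to 0.24 under median alignment, below the median of 1.07 over all genes there. Malt1, the protease of the lymphocyte signalling complex, was at 1.00 (at least 0.87, its saline value lying below the mark) and Traf2, an adaptor of the TNF receptors, at 0.95. Between the lungs none of 19 was past 2-fold, and the highest were Traf2 at 0.78 and Map3k14, the NIK kinase of the noncanonical branch, at 0.74. Map3k14 lay below the mark on the saline lung, and with the mark in its place the difference was at least 0.12. The lowest were Birc3, a ubiquitin ligase that holds NIK down, at -0.48 and Tab1, a partner of the TAK1 kinase, at -0.41.

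Among 18 ubiquitin enzymes and their partners, 5 were higher and 0 lower on FULA 1 than on the saline lung (27.8% and 0%), with a median of 0.36, and the 5 were past 2-fold with the mark in place of lower values too. Tnip3, which encodes a partner of the A20 enzyme, was 2.62 higher and Otulin, the enzyme that removes linear ubiquitin chains, 2.48 higher. Both lay below the mark on the saline lung, so the differences are at least 1.86 and 1.76. Ube2n, the conjugating enzyme of lysine-63 chains, stood at -0.62 and Usp18, which removes the ubiquitin-like ISG15, at -0.58. Under median alignment both were above 0 but below the median of 1.07 over all genes. Between the lungs 1 of 17 was higher and 1 lower: Otulin was 1.47 higher on the urethane lung, under 2-fold from the mark (at least 0.74), and Ube2n was lower at -1.30, while Usp18 stood at 0.82 and Btrc, the ligase that takes phosphorylated IkB, at -0.50.

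Of 16 receptors that feed the pathway, 3 were higher and 3 lower on FULA 1 than on the saline lung (18.8% each way). With the mark in place of lower values 2 and 2 of these stayed past 2-fold, Tnfrsf11a, the RANK receptor, standing at 0.88 and Tlr9, a sensor of microbial DNA, at -0.69. Il1r1, the interleukin 1 receptor, was 2.23 higher (at least 2.12) and Tnfrsf12a, the TWEAK receptor, 1.496 higher. Nod1, a sensor of bacterial peptidoglycan, was lower at -2.38 and Tnfrsf13c, the BAFF receptor of B cells, at -2.02. Between the lungs 1 of 14 was higher and 0 lower: Tnfrsf1a, the main TNF receptor, stood at 4.43 on the urethane lung and 3.18 on the saline lung, a difference of 1.25. Il1r1 was at 0.61 (at least 0.50), Tlr2, a sensor of bacterial lipoproteins, at -0.56 (at least 0.43 lower) and Tnfrsf13c at -0.47.

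The partners of TBK1, the nucleic acid sensors and the IRF factors numbered 10, of which 1 was higher and 5 lower on FULA 1 than on the saline lung (10% and 50%), all past 2-fold with the mark in place too, at a median of -0.62, which became 0.38 under median alignment, below the 1.07 of all genes there. Mavs, the mitochondrial adaptor of RNA sensing, was 1.25 higher, whereas Ifih1, the MDA5 sensor, was lower at -1.95 and Tbkbp1, an adaptor that binds TBK1, at -1.63. Tank, another TBK1 adaptor, was at 0.87 (at least 0.73). Between the lungs none of 8 was past 2-fold; Tbkbp1 was 0.96 higher on the urethane lung, Mavs 0.39 higher, Azi2, a further adaptor, stood at -0.79 and Ddx58, the RIG-I sensor, at -0.19.

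Of 23 genes that NF-kB is known to induce, 9 were higher and 6 lower on FULA 1 than on the saline lung (39.1% and 26.1%), with a median of 0.35. With the mark in place of lower values 8 and 5 of these stayed past 2-fold: Saa3, a serum amyloid A gene, was then at 0.08, and Sele, which encodes E-selectin, lay below the mark on both arrays. Cxcl5, a chemokine for neutrophils, was at rank 99.1 on FULA 1 and 42.8 on the saline lung, higher by at least 5.99. Ptgs2, the inducible cyclooxygenase, was 3.63 higher. Ccl5, a chemokine of T cells, was lower by at least 4.30 and Il1b by at least 1.84. Between the lungs none of 19 was past 2-fold; Il1b stood at 0.95 and the adhesion molecule gene Icam1 at 0.93, Ccl2 at -0.96 and Cxcl10 at -0.87. Targets of the noncanonical branch in lymphoid tissue were lower on FULA 1 in 5 of 6 genes past the floor and higher in 0. These 5 were past 2-fold with the mark in place too. The list named 9 genes, of which 7 were measured. Cxcl12, Cxcl13, Madcam1, Glycam1 and Icosl lay below the floor of 2.37 on FULA 1, so none of these could be called higher there. Tnfsf13b, lower at -1.57, reached the floor on both arrays. The median of the 6 was -1.92 and stayed below 0 in 3 other scalings. Under median alignment 3 genes were called lower and 0 higher. Cxcl13, a chemokine of B cell follicles, was lower by at least 3.28 and Cxcl12, a stromal chemokine, by at least 3.30. Leukocyte and stromal markers were also low on the line, and their part in these differences was not tested. Icosl was lower at -1.13 and Madcam1 stood at -0.59. On the urethane lung 2 of 6 were lower and 0 higher: Cxcl13 was lower than on the saline lung at -1.13 and Glycam1 by at least 1.13, Madcam1 stood at -0.32 (at least 0.11 lower) and Icosl at -0.11, the sign of Icosl turning to 0.03 under median alignment.

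**Figure D3:**
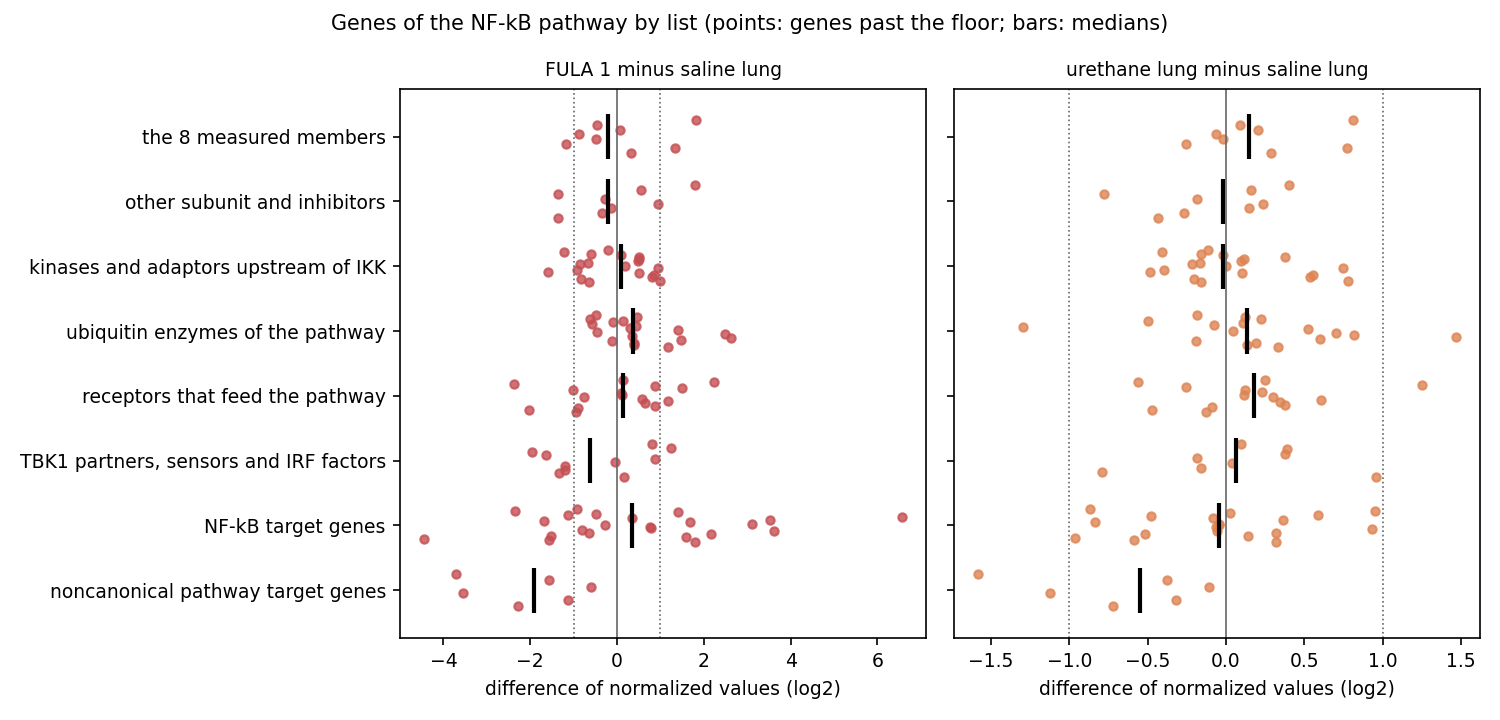
Differences in normalized log2 value of single genes past the floor (points) for FULA 1 minus saline lung and urethane lung minus saline lung, by list, with the median of each list as a black bar and dotted lines at 2-fold; the horizontal scales differ. The medians of 7 of the 8 lists lie within 1 of 0 in the FULA 1 comparison, and that of the noncanonical target genes lies at -1.92.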

How the data were processed

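RNA of FULA 1 cells, of urethane lung and of saline lung was hybridised to 1 array per group; Trizol, spin columns and biotin labelling are named in the labels' protocols. The authors deposited 1 log2 value per probe set and array, made with RMA per the submitters' processing notes and GeneSpring GX 12.5 per the design text. The build, the background setting and the set of arrays processed together: not given in the sources used here. No column of another sample was present.

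Of 41345 probe sets, 23521 carried 1 symbol in the platform annotation, 1814 several and 16010 none here. Entrez identifiers in the RefSeq table of GRCm38.p6 gave current symbols for 23328. The arrays were quantile-normalized to the mean of their 3 sorted columns (ties took the mean rank), and a gene was the mean of its probe sets (Python 3.11.15, numpy 2.4.6, pandas 2.3.3, scipy 1.17.1; lowess with span 0.3 in statsmodels 0.14.6). Of these steps, the quantile normalization, followed by the 2-fold calls, was tested on simulated probe set values. The symbol updating, the averaging of probe sets and the lowess step were not. In the simulation only a small share of probe sets differed between arrays. Between FULA 1 and the saline lung 22.6% of genes past the floor were higher and 22% lower. The simulation therefore did not test calls where so many genes differ. No test between groups was possible with 1 array each; precision is limited by the number of arrays. The members, lists, floor, mark and thresholds were chosen with earlier results of these data known. The text names all members, Rel, the 2 highest and 2 lowest genes of each pathway list past the floor in FULA 1 and in urethane lung against saline lung, and the gene nearest to each member; genes named beside calls that fell under 2-fold at the mark, and Lyz2, were chosen after their values were seen, as were the counts at the mark and the sum without Lyz2.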

Additional observations from a re-analysis of the deposited data

How the results depend on the processing

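With the values as deposited, whose scales differ, all 8 genes were at least 2-fold higher on FULA 1 than on the saline lung and 8 than on the urethane lung, and 6 were higher on the urethane lung than on the saline lung. Of all genes past the floor, 99.5%, 99.0% and 63.9% were higher in these 3 comparisons as deposited. Quantile normalization gave 3 past 2-fold either way for FULA 1 against the saline lung, 2 against the urethane lung and 0 between the lungs. Under median alignment the FULA 1 counts were 5 against the saline lung and 6 against the urethane lung, and at a 4-fold threshold 0 against each. At 4-fold, 6.27% of all genes past the floor were higher and 5.64% lower against the saline lung, and 5.84% and 5.11% against the urethane lung. Between the lungs, the FULA 1 quantiles gave 1 (Nfkb2) and a 1.5-fold threshold gave 2. The other settings kept each count, both directions together, within 1.5 times, but not each split: lowess gave 1 higher and 2 lower on FULA 1 than on the saline lung, Nfkb2 at 0.97 losing its call and Ikbkb at -1.07 gaining one. Against the urethane lung, Relb joined the lower calls with lowess (-1.24) and with the FULA 1 quantiles (-1.35), for 1 higher and 2 lower. Of differences past 2-fold, Relb against the saline lung became 4.78 and Ikbkb against the urethane lung 3.84 as deposited, and Ikbkb 0.099 under median alignment; the cause was not tested. The share of all genes called between FULA 1 and the saline lung ran from 11.9% at 4-fold to 99.6% as deposited. Ties limit the lungs: 47.2% of probe sets on the urethane lung and 48.4% on the saline lung shared a value with another, against 22.6% on FULA 1. No paired analysis was possible because each group held 1 array.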

Other observations

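The genes nearest to each measured member, by Euclidean distance over the 3 normalized values, were Gpx4 for Ikbkb (distance 0.19), Ttll5 for Ikbkg (0.04), Gemin5 for Ikbke (0.05), Sumf1 for Tbk1 (0.08), Fam117b for Rela (0.14), Ccdc85b for Relb (0.05), Dlat for Nfkb2 (0.12) and Dpp9 for Nfkbia (0.07). With 3 arrays such likeness is loose: between 48 genes for Ikbkb and 790 genes for Ikbkg lay within 0.5 of the member on every array. Ikbkb thus had the least common combination of levels of the 8, followed by Rela with 103 genes and Nfkb2 with 199.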
